A study of Mus musculus with 21 samples.

Results

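Smooth muscle contractile genes are the genes for the proteins with which smooth muscle cells shorten: the myosin motor and its switches, the actin filament and the proteins bound to it, the intermediate filaments and membrane attachments, and the receptors and channels that start a contraction. A list of 34 such genes of visceral smooth muscle was taken by gene symbol. All 34 were among the 24062 genes of the count table and all 34 passed the filter on low counts, which left 15936 genes to test. The measurement was RNA-seq of whole colon tissue or tumours from C57BL/6 mice, in 21 libraries that form 7 groups of 3. Wild-type males, wild-type females and App NL-G-F males each gave a normal colon group and a tumour group, and App NL-G-F females gave a normal colon group. App NL-G-F is a knock-in of Alzheimer's disease mutations into the mouse's own App gene, made as a model of amyloid disease. Tumours came from mice given AOM/DSS, the carcinogen azoxymethane and the colitis-inducing agent dextran sulfate sodium. The labels call the normal colon untreated, while the series' design text also speaks of normal tissue next to tumours, so whether a given normal sample came from a treated mouse is not known here. Tumours of App NL-G-F females were not analysed here. No label says that the 3 libraries of a group came from separate mice, so p-values measure the spread between these libraries, which may be technical in part. The study asked how the mutations bear on the outcome of this tumour model in each sex.

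The colon wall holds an inner circular and an outer longitudinal coat of smooth muscle beneath the mucosa, and a thin muscle sheet within the mucosa itself. In these cells calcium activates myosin light chain kinase, the phosphorylated myosin pulls on actin, and a phosphatase ends the contraction. Serum response factor, which binds a DNA element called the CArG box, and its coactivator myocardin drive most genes of the contractile set. Many of the same genes are also expressed in vascular smooth muscle, pericytes and activated fibroblasts.

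The CArG box is CC and GG with a run of A and T between them, and it reads as the same kind of element on both strands. Because the members changed together in the comparisons below, the promoters of the 29 members with a RefSeq entry on GRCm38.p6 were searched for it, from 250 bases before to 50 bases after the start site. It was present in 3 of 29 members (10.34%), Myl9, Ldb3 and Dmd, and in 1.806% of the 27025 genes with such a window. A CArG-like box, in which at most 1 of the bases between CC and GG is a G or C, and which includes the strict box, was present in 9 of 29 members (31.03%) and in 11.29% of all genes. The 9 were Acta2, Synm, Myl9, Ldb3, Cacna1c, Hspb6, Pdlim3, Dmd and Jph2. A match is a description of these letters and not a measured site. Shown here are promoter stretches of 2 genes of the filaments, Acta2 and Myl9, and of 2 scaffold genes, Ldb3 and Dmd. Acta2, Myl9 and Dmd were lower in all 3 tumour comparisons, while Ldb3 passed in none. Capitals mark the boxes, and each stretch is written 5′ to 3′ on the gene's strand.
Acta2, chr19:34255438-34255467, minus strand: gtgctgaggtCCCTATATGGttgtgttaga
Acta2, chr19:34255388-34255417, minus strand: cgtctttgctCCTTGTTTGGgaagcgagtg
Myl9, chr2:156775284-156775383, plus strand: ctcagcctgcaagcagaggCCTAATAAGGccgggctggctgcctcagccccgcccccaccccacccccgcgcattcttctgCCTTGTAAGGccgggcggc
Ldb3, chr14:34588683-34588801, minus strand: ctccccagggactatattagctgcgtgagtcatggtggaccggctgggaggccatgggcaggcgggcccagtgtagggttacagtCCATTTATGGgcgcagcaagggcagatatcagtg
Dmd, chrX:82948750-82948869, plus strand: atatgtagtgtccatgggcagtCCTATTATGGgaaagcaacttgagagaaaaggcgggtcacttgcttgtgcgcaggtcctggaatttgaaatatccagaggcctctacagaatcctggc
Both Acta2 boxes are of the CArG-like class, the Myl9 stretch holds a strict box and then a CArG-like one, and the Ldb3 and Dmd stretches hold a strict box each.

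Total counts per library ran from 3414123 to 26174008. The 3 libraries of wild-type male normal colon differed most among the normal groups, with replicate 2 the lowest for most members, and replicate 3 of the wild-type male tumours was the highest of its group. One library stood apart: in App NL-G-F male tumour replicate 3 the summed level of 12 skeletal muscle markers was 10668 CPM (counts scaled to library size, here with the trimmed mean of M-values), against 25.9 to 165 CPM in the other 20 libraries. Its Ttn count was 76040 and its Myh4 count 14475, while its Myh2 count was 11. Log2 fold changes named for members in App NL-G-F male tumours are given with and without it where its absence changed a call or moved the value by more than 1.5 times. For the second list of smooth muscle pathway genes below, values without this library were not examined.

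All 34 members were detected in normal colon, and the genes that define smooth muscle were abundant there, so the label fitted the data. Per kilobase of exon, wild-type male normal colon had 546 ± 299 CPM (SD, n = 3) of Actg2, the enteric smooth muscle actin, 443 ± 211 of Acta2, the vascular and general smooth muscle actin, 437 ± 222 of Tagln, and 286 ± 160 of Myh11, the smooth muscle myosin heavy chain. At the other end stood Chrm3, the muscarinic receptor that triggers contraction, with 0.629 ± 0.26 CPM per kilobase. The members' counts took 0.658% to 1.82% of all counts in wild-type male normal colon and 0.222% to 0.318% in wild-type male tumours. Those of App NL-G-F males were 0.938% to 1.66% in normal colon and 0.338% to 0.352% in tumours. In wild-type females they were 0.393% to 0.903% and 0.188% to 0.209%, and in App NL-G-F female normal colon 1.42% to 1.93%. The highest tumour share was thus below the lowest normal share over all 21 libraries.

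Within the groups most members varied with Myh11 from library to library. Over the 21 deviations from group means in log2 CPM, which share their libraries, Pearson's r with Myh11 was 0.98 for Tagln, an actin-binding protein of the contractile apparatus, 0.95 for Pgm5, a dystrophin-associated protein of the attachment plaques, and 0.93 for Actg2. It was 0.87 for Myocd, the myocardin gene. The 3 members that followed Myh11 least were Pdlim7 at 0.27, Nexn at 0.23 and Ldb3 at -0.02, all of them genes of actin-linked scaffold proteins. These are descriptions of these libraries.

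In tumours the contractile set was far lower than in normal colon in each of the 3 groups that had both tissues. In wild-type males 31 of 34 members were lower in tumours by edgeR's quasi-likelihood test (Benjamini-Hochberg adjusted p under 0.05 over all tested genes), where 19.3% of all tested genes were lower, and the median log2 fold change of the members was -2.58 against 0.01 over all tested genes. In wild-type females 27 of 34 were lower, where 24.0% of all tested genes were, with a median of -2.22 against 0.01. In App NL-G-F males 28 of 34 were lower, where 9.97% of all tested genes were, with a median of -1.69 against 0.01. These 3 comparisons share no library, and 24 members were lower in all 3, as were 6.11% of all tested genes. In bulk tissue, fewer smooth muscle cells in a sample and less RNA per cell cannot be told apart. For 14 members, among them Myh11, Acta2, Actg2, Tagln, Cnn1 and Dmd, every normal library was above every tumour library of the series, which held for 5.53% of all tested genes.

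**Figure D1:**
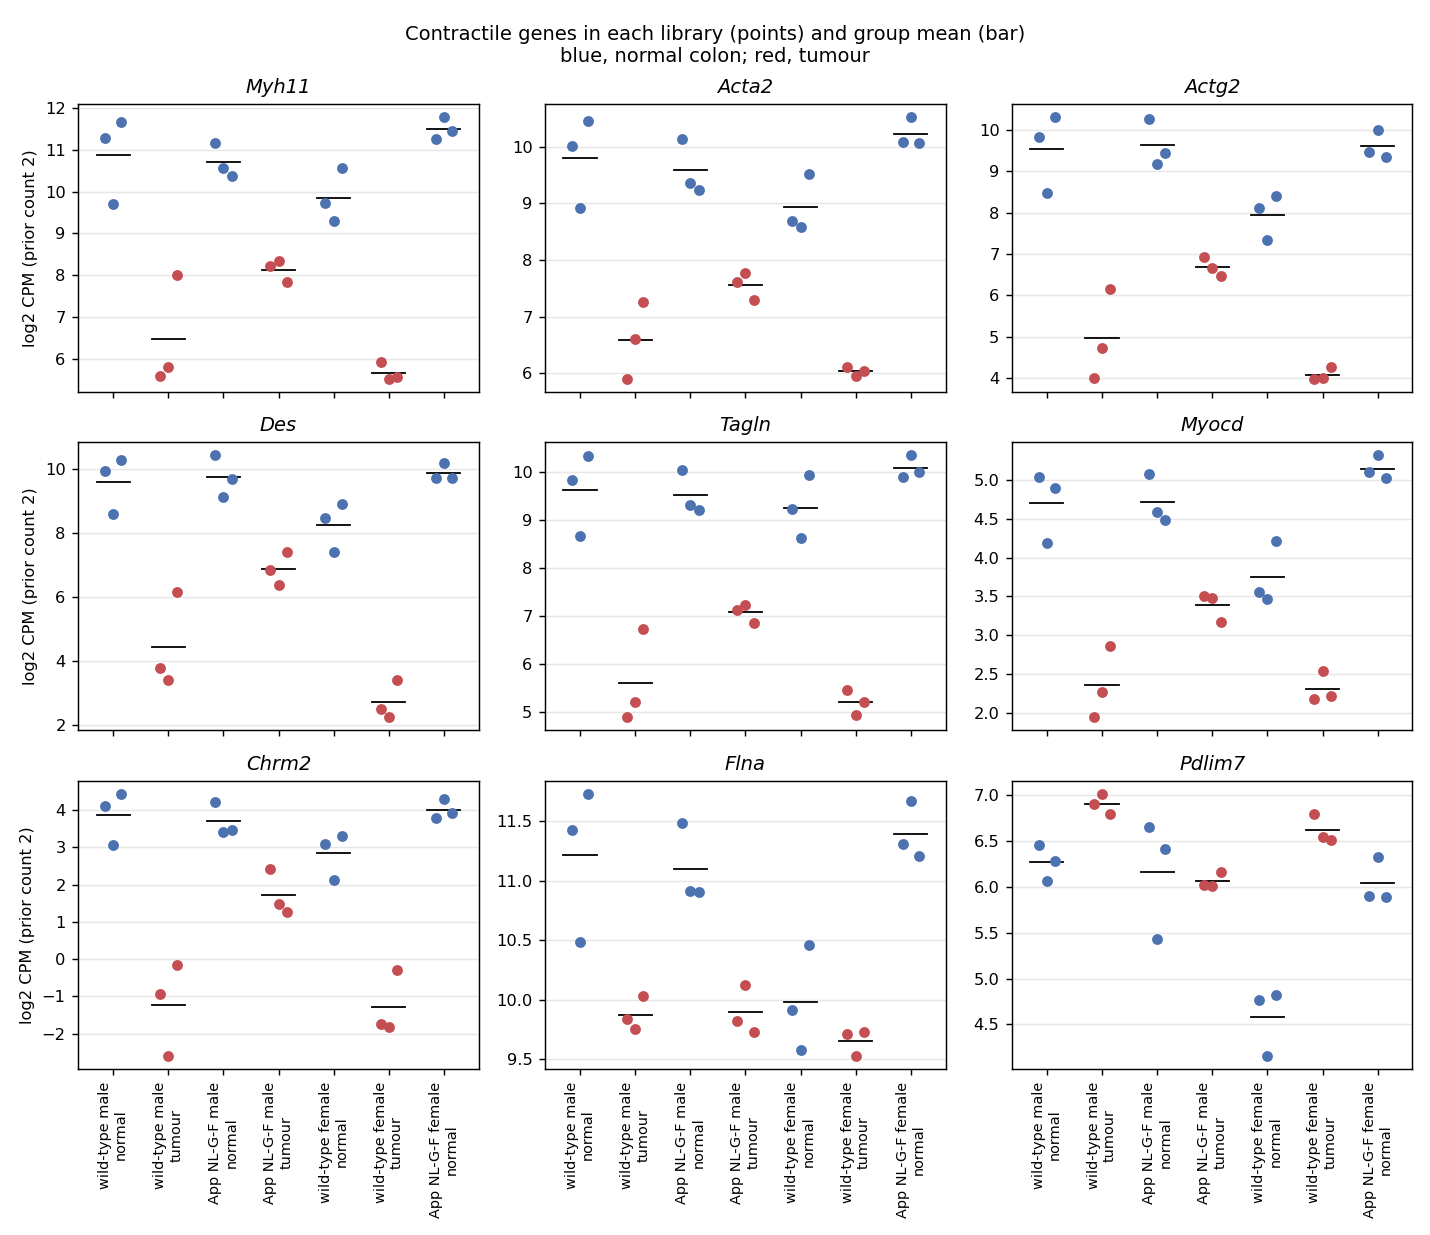
Level of 9 contractile genes in each library as log2 CPM with a prior count of 2 (points, 3 libraries a group; bar, group mean; blue, normal colon; red, tumour). For Myh11, Acta2, Actg2 and Tagln all normal libraries lie above all tumour libraries, Myh11 from 629 to 3529 CPM against 46.2 to 326 CPM, while Pdlim7 is lowest in wild-type female normal colon.

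The thick filament and its control fell as a whole: all 5 members were lower in each of the 3 comparisons. Myh11 (chr16:14194535-14291372, mm10) stood at 2472, 831 and 3213 CPM in the wild-type male normal libraries and at 48.7, 56.5 and 259 CPM in the wild-type male tumours. In App NL-G-F males it stood at 2305, 1504 and 1318 CPM in normal colon and at 297, 326 and 228 CPM in tumours. In wild-type females it stood at 846, 629 and 1502 CPM and at 60.6, 46.2 and 47.5 CPM. Tumour and normal libraries did not overlap in any of these groups, and the third wild-type male tumour was several times above the other 2. The log2 fold change of Myh11 was -4.15 (SE 0.63, edgeR adjusted p 0.000178) in wild-type males, -4.27 (SE 0.64, adjusted p 5.82e-05) in wild-type females and -2.59 (SE 0.59, adjusted p 0.00879) in App NL-G-F males. Mylk (chr16:34745210-35002420), which encodes the kinase that switches the motor on, stood at 761, 290 and 903 CPM in wild-type male normal colon and at 101, 131 and 169 CPM in the tumours. It stood at 691, 531 and 383 against 220, 139 and 118 CPM in App NL-G-F males, and at 318, 204 and 432 against 73.3, 61.6 and 79.3 CPM in wild-type females. Its log2 fold changes, -2.28 (SE 0.38), -1.75 (SE 0.37) and -2.15 (SE 0.38), were smaller than those of the motor, without overlap between tissues. Myl9, the regulatory light chain that the kinase phosphorylates, fell by 3.51, 2.51 and 3.52 on the log2 scale in wild-type males, App NL-G-F males and wild-type females. Ppp1r12b and Ppp1r14a, a targeting subunit and an inhibitor of the myosin phosphatase, fell by 1.60, 1.02 and 1.48 and by 2.14, 1.88 and 2.01.

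Of the 9 thin filament members, 9 fell in wild-type males and 8 in each of the other groups. Actg2 (chr6:83512905-83536265) stood at 911, 356 and 1281 CPM in wild-type male normal colon and at 15.8, 26.2 and 71.3 CPM in the tumours. It stood at 1233, 578 and 697 against 122, 101 and 88.9 CPM in App NL-G-F males, and at 277, 163 and 339 against 15.6, 15.8 and 18.9 CPM in wild-type females. The tissues did not overlap, and the log2 fold change in App NL-G-F males was -3.01 (SE 0.53, edgeR adjusted p 0.0027). Acta2 (chr19:34241090-34255590), which pericytes and myofibroblasts also make, stood at 1038, 483 and 1401 against 59.6, 96.6 and 153 CPM in wild-type males. It stood at 1131, 655 and 605 against 196, 217 and 157 CPM in App NL-G-F males, and at 411, 384 and 729 against 68.7, 61.3 and 65.9 CPM in wild-type females. Its log2 fold changes were -3.24 (SE 0.41), -2.07 (SE 0.39) and -2.96 (SE 0.40). Reads from the near-identical coding sequences of the actin genes could be split differently by the authors' counting, so the actin levels carry that uncertainty.

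Cnn1 (chr9:22099216-22109630), calponin, which restrains the motor on actin, stood at 447, 219 and 573 against 6.7, 11.3 and 34.1 CPM in wild-type males. It stood at 577, 292 and 375 against 64, 46.3 and 44.4 CPM in App NL-G-F males, and at 199, 114 and 277 against 7.74, 3.98 and 6.52 CPM in wild-type females. Calponin had among the most negative values of the thin filament, -4.54 (SE 0.56), -3.01 (SE 0.51) and -5.02 (SE 0.59) in log2 fold change. Tagln (chr9:45929619-45936058) stood at 907, 408 and 1289 against 29.6, 36.7 and 106 CPM in wild-type males. It stood at 1052, 635 and 593 against 140, 150 and 115 CPM in App NL-G-F males, and at 594, 393 and 974 against 44, 30.8 and 36.8 CPM in wild-type females. Normal and tumour libraries of both genes were apart in every group, and Tagln fell by 3.91, 2.49 and 4.14 on the log2 scale. Tpm1, a tropomyosin gene that many cells express, had smaller values of -0.98 on the log2 scale (SE 0.26, edgeR adjusted p 0.00819), -0.87 (SE 0.26, adjusted p 0.0274) and -0.65 (SE 0.26, adjusted p 0.0483). Cald1, caldesmon, fell by 1.27 (SE 0.31) and 1.00 (SE 0.30) in the males and had -0.22 (SE 0.30, adjusted p 0.578) in wild-type females. Tpm2, the tropomyosin of muscle, fell by 3.35, 1.75 and 3.06, and Lmod1, the filament nucleator leiomodin, by 3.26, 2.37 and 2.74. Hspb6, a small heat shock protein of muscle, had values of -1.99 (SE 0.61), -0.91 (SE 0.57, adjusted p 0.263) and -1.67 (SE 0.65). In App NL-G-F males 3 of these genes changed with the library with skeletal muscle markers: without it Hspb6 fell by 2.15 (SE 0.49, edgeR adjusted p 0.0123) and Tpm2 by 2.54 (SE 0.54, adjusted p 0.0107), while Cald1 had -0.95 (SE 0.35, adjusted p 0.0785) and did not pass. The number of members lower in App NL-G-F males was 28 without that library too, beside 15.3% of all tested genes called in either direction.

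**Figure D2:**
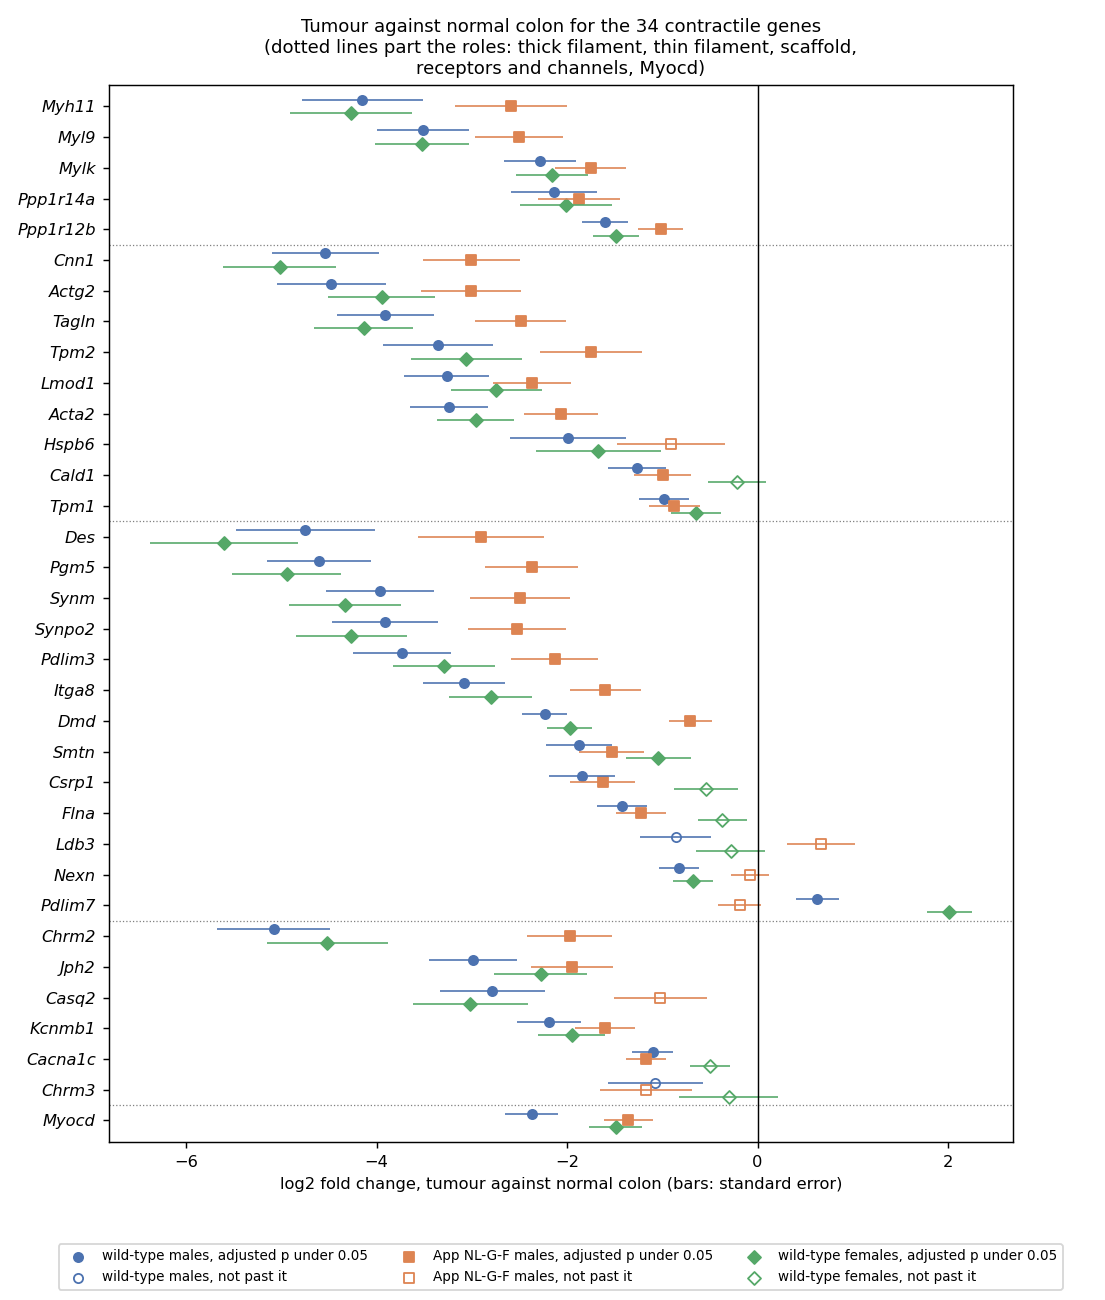
Log2 fold change of tumour against normal colon with its standard error for the 34 members, ordered by role and then by the value in wild-type males; filled symbols have an edgeR adjusted p under 0.05. Most App NL-G-F male values (squares) lie nearer to 0 than the wild-type ones, as for Myh11 at -2.59 against -4.15 and -4.27, and Pdlim7 alone rose in both wild-type groups.

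The 13 scaffold and attachment members were the most divided, with 11 lower in wild-type males, 10 in App NL-G-F males and 9 in wild-type females. Des (chr1:75360329-75368579), desmin, the muscle intermediate filament, stood at 995, 388 and 1251 against 13.7, 10.5 and 70.8 CPM in wild-type males. It stood at 1387, 557 and 825 against 116, 83.6 and 171 CPM in App NL-G-F males, and at 354, 170 and 480 against 5.43, 4.56 and 10.4 CPM in wild-type females. No tumour library reached a normal library of its own group, and desmin's value of -5.60 on the log2 scale (SE 0.78, edgeR adjusted p 3.21e-05), a 48.6-fold lower level, was the most negative of all members in wild-type females. In wild-type males it was -4.75 (SE 0.73) and in App NL-G-F males -2.90 (SE 0.66). Pgm5, Synm, Synpo2 and Pdlim3, which link filaments to Z-line-like dense bodies and the membrane, fell in all 3 groups by 2.13 to 4.94 on the log2 scale. Itga8, an integrin chain, fell by 3.08, 1.60 and 2.80.

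Dmd (chrX:82948870-85206141), dystrophin, which ties the cytoskeleton to the membrane, stood at 127, 63.6 and 139 against 23.3, 17.8 and 27.9 CPM in wild-type males. It stood at 101, 102 and 75.2 against 52.9, 54 and 63.5 CPM in App NL-G-F males, and at 142, 124 and 175 against 44.1, 34.2 and 33.8 CPM in wild-type females. The tissues did not overlap, but the App NL-G-F tumours came near to their normal colon, and the log2 fold changes were -2.24 (SE 0.24), -0.71 (SE 0.23) and -1.97 (SE 0.23). Flna (chrX:74223461-74249820), filamin A, an actin crosslinker of many cell types, stood at 2747, 1429 and 3396 against 918, 862 and 1048 CPM in wild-type males. It stood at 2860, 1931 and 1912 against 907, 1116 and 850 CPM in App NL-G-F males, and at 966, 766 and 1407 against 841, 739 and 847 CPM in wild-type females. In the females the tissues overlapped, and the value of -0.37 on the log2 scale (SE 0.26, edgeR adjusted p 0.251) did not pass the threshold, as against -1.42 (SE 0.26) and -1.22 (SE 0.26) in the males; the difference between the sexes of the wild type, 1.05 (SE 0.37, adjusted p 0.184), did not pass either. Csrp1, a LIM protein, likewise had -1.84 (SE 0.35), -1.63 (SE 0.34) and -0.54 (SE 0.34, adjusted p 0.196).

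Pdlim7, a PDZ and LIM domain scaffold gene expressed in several cell types, went the other way. It stood at 87.8, 66.7 and 77.9 CPM in wild-type male normal colon and at 120, 129 and 111 CPM in the tumours. In wild-type females it stood at 27.1, 17.7 and 28 against 111, 93 and 91.1 CPM, and in App NL-G-F males at 100, 43 and 84.8 against 64.5, 64.1 and 71.5 CPM. It rose in wild-type males by 0.63 on the log2 scale (SE 0.23, edgeR adjusted p 0.0391), a call lost when any 1 of the 6 libraries was left out (highest adjusted p 0.135), and in wild-type females by 2.01 (SE 0.24, adjusted p 3.17e-06). In App NL-G-F males the groups overlapped and the value was -0.19 (SE 0.23, adjusted p 0.578). Ldb3, a Z-disc protein of striated and smooth muscle, passed in no tumour comparison, with -0.86 (SE 0.37), 0.66 (SE 0.36) and -0.28 (SE 0.36), the 0.66 being the only value above 0 among the members in App NL-G-F males. Without the library with skeletal muscle markers it was -0.10 (SE 0.26, edgeR adjusted p 0.822), and all 34 values were then below 0. Nexn, nexilin, had -0.83 (SE 0.21), -0.08 (SE 0.20, adjusted p 0.81) and -0.67 (SE 0.21). Without the library with skeletal muscle markers its value in App NL-G-F males was -0.37 (SE 0.19, edgeR adjusted p 0.179).

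Among the 6 receptor, channel and calcium store members, 5 fell in wild-type males and 4 in each of the other groups. Chrm2 (chr6:36388084-36528414), the more abundant muscarinic acetylcholine receptor of gut muscle, stood at 17.1, 8.24 and 21.6 CPM in wild-type male normal colon and at 0.36, 0 and 0.737 CPM in the tumours, where a count of 3 corresponds to 0.216 to 0.873 CPM. It stood at 18.3, 10.5 and 11 against 5.17, 2.6 and 2.25 CPM in App NL-G-F males, and at 8.33, 4.18 and 9.76 against 0.136, 0.117 and 0.652 CPM in wild-type females. The tissues were apart in every group, and its value of -5.08 on the log2 scale (SE 0.59, edgeR adjusted p 1.14e-05) was a 33.9-fold lower level in wild-type males, with tumour counts near that floor. Without wild-type male tumour replicate 3 it was -5.77, and Des and Pgm5 were then at -6.15 and -5.79. Its log2 fold change was -1.97 (SE 0.45) in App NL-G-F males and -4.52 (SE 0.63) in wild-type females. Chrm3 (chr13:9875486-10360847) was low throughout and passed in no group. It stood at 4.53, 2.1 and 5.17 against 1.08, 1.75 and 2.76 CPM in wild-type males, at 5.89, 4.05 and 2.25 against 2.65, 0.887 and 1.86 CPM in App NL-G-F males, and at 1.94, 1.81 and 2.79 against 0.679, 1.75 and 2.72 CPM in wild-type females. Tumour and normal libraries overlapped in all 3 groups, and colonic epithelium also expresses this receptor. Kcnmb1, the regulatory subunit of the large-conductance potassium channel, fell by 2.19, 1.60 and 1.95 on the log2 scale, and Jph2, which couples the calcium store to the membrane, by 2.99, 1.95 and 2.28. Cacna1c, the pore of the L-type calcium channel, had -1.10 (SE 0.21), -1.17 (SE 0.21) and, not past the threshold, -0.50 (SE 0.21, adjusted p 0.0548). Casq2, a calcium-binding protein of the store, fell by 2.78 and 3.01 in wild-type males and females and had -1.02 (SE 0.49, adjusted p 0.142) in App NL-G-F males.

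Myocd (chr11:65176561-65269989), the coactivator of the set, stood at 32.8, 18.1 and 29.5 CPM in wild-type male normal colon and at 3.67, 4.66 and 7.09 CPM in the tumours. It stood at 33.7, 23.8 and 22.2 against 11.2, 10.9 and 8.81 CPM in App NL-G-F males, and at 11.6, 10.9 and 18.4 against 4.35, 5.61 and 4.46 CPM in wild-type females. The tissues did not overlap within any group, and it fell by 2.37, 1.36 and 1.49 on the log2 scale.

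A second list of 61 other smooth muscle pathway genes, of which 54 were tested, moved less. It had 34 lower and 3 higher genes in wild-type males (median log2 fold change -0.78), 25 lower and 3 higher in App NL-G-F males (-0.54), and 23 lower and 7 higher in wild-type females (-0.37). Of all tested genes, 19.3%, 9.97% and 24.0% were lower in the same order. Higher were 2622, 1657 and 3989 of the 15936 tested genes. The lowest called genes of the second list were Tacr2, the neurokinin receptor of gut muscle, and Cacnb2, a calcium channel subunit, in wild-type males at -4.61 (SE 0.76) and -3.40 (SE 0.50). In App NL-G-F males they were Ryr2, a calcium release channel, and Tacr2, at -2.04 (SE 0.38) and -1.85 (SE 0.59). In wild-type females Tacr2 had a count of 0 in all 3 tumour libraries and 1.25 to 4.96 CPM in normal colon, an at least 7.67-fold lower level against a floor of 3 counts per library, and Ryr2 was at -5.20 (SE 0.52). The highest were Cnn3 and Vim, a calponin and an intermediate filament of non-muscle cells, at 0.91 (SE 0.17) and 0.73 (SE 0.23) in wild-type males and 2.05 (SE 0.18) and 1.94 (SE 0.24) in wild-type females. The highest in App NL-G-F males were Tpm4, a tropomyosin, and Rock2, a kinase that inhibits the myosin phosphatase, at 0.71 (SE 0.18) and 0.51 (SE 0.13).

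Markers of the cells that neighbour or resemble smooth muscle were summed per library in CPM. The 5 markers of interstitial cells of Cajal, the pacemaker cells of the muscle coat, had sums of 777 to 1120 in wild-type male normal colon and 237 to 287 in the tumours. In App NL-G-F males the sums were 655 to 955 and 398 to 629, and in wild-type females 930 to 1157 and 255 to 436. The 6 enteric glia markers had 9.66 to 19.7 and 2.62 to 4.14, 14.2 to 15.1 and 5.74 to 10.2, and 10.03 to 20 and 3.39 to 4.68 in the same order. Both lists were therefore apart between tissues in all 3 groups, while the 10 enteric neuron markers overlapped (38.1 to 69.6 against 30.2 to 60 in wild-type males). The 8 pericyte markers had 244 to 295 against 158 to 176 in wild-type males, 228 to 325 against 211 to 249 in App NL-G-F males, and 150 to 188 against 125 to 187 in wild-type females. The 10 fibroblast markers had 2858 to 3118 against 2395 to 2856 in wild-type males, 2638 to 4229 against 3082 to 4431 in App NL-G-F males, and 1521 to 1823 against 1927 to 3033 in wild-type females. The 9 epithelial markers had 7637 to 10118 against 6639 to 7058 in wild-type males, 7477 to 8229 against 6975 to 8260.5 in App NL-G-F males, and 9764 to 10528 against 5599 to 6761 in wild-type females. In wild-type males the mesothelial markers had 1.99 to 8.03 against 28.5 to 45.4, higher in tumours without overlap, and the adipocyte markers 10.5 to 25.5 against 2.45 to 7.57, lower without overlap; both lists overlapped in the other groups. Endothelial markers had 70.2 to 98.3 against 141 to 219 in wild-type females, higher in tumours without overlap, and overlapped in both male groups. Leukocyte markers, from 53.2 to 199 over all 21 libraries, overlapped in all 3 groups. The part of any of these cells in the fall of the members was not tested.

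Male tumours of the 2 genotypes differed in how low the set was. The mean log2 CPM over the 34 members was 3.84, 3.97 and 4.89 in the wild-type male tumours and 5.19, 5.17 and 5.33 in the App NL-G-F male tumours, so the groups did not overlap and the App NL-G-F libraries lay close together. Against wild-type male tumours, 7 members were higher in App NL-G-F male tumours by edgeR's quasi-likelihood test, where 9.30% of all tested genes were higher, and 1 was lower. The median log2 fold change of the members was 1.05 against 0.05 over all tested genes, and 31 of 34 values were above 0. For 17 members all 3 App NL-G-F libraries were above all 3 wild-type ones, which held for 20.3% of all tested genes. For 30 members the App NL-G-F tumour mean lay above the wild-type tumour mean and below the App NL-G-F normal mean, as it did for 24.5% of all tested genes.

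**Figure D3:**
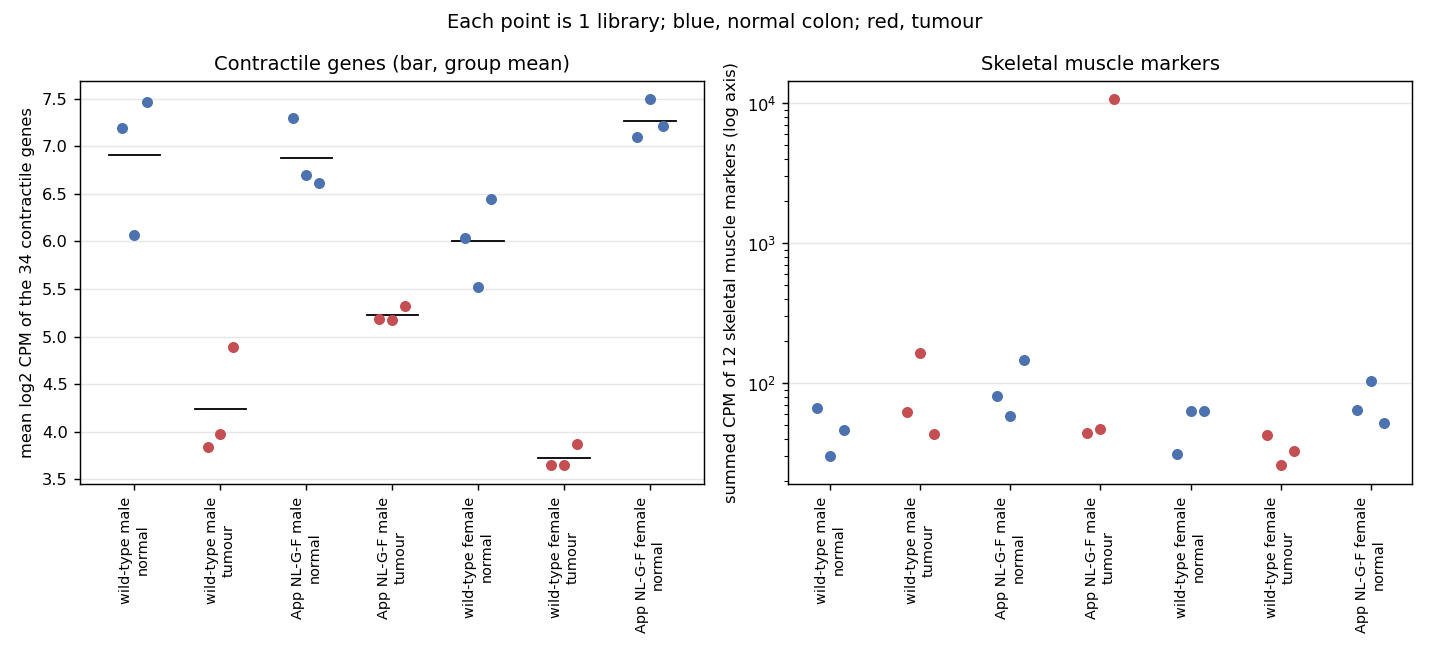
Left, mean log2 CPM of the 34 contractile genes in each library (points; bar, group mean); right, summed CPM of the 12 skeletal muscle markers on a log axis; blue, normal colon, red, tumour. App NL-G-F male tumours lie at 5.17 to 5.33, above the wild-type male tumours at 3.84 to 4.89, and 1 App NL-G-F male tumour library has 10668 CPM of skeletal muscle markers.

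The 7 higher members were Chrm2 at 2.87 (SE 0.61, edgeR adjusted p 0.00903), Pgm5 at 1.85 (SE 0.50, adjusted p 0.0273), Itga8 at 1.54 (SE 0.44, adjusted p 0.0291), Ldb3 at 1.45 (SE 0.37, adjusted p 0.0207), Dmd at 1.28 (SE 0.24, adjusted p 0.00466), Myocd at 1.00 (SE 0.28, adjusted p 0.026) and Nexn at 0.67 (SE 0.21, adjusted p 0.0409) in log2 fold change. Membrane attachment genes (Pgm5, Itga8, Dmd), the muscarinic receptor gene Chrm2 and the coactivator gene were thus among those that passed. The genes of the filaments themselves did not: Des at 1.92 (SE 0.65, adjusted p 0.0594), Cnn1 at 1.54 (SE 0.51, adjusted p 0.0541), Actg2 at 1.44 (SE 0.51, adjusted p 0.0676), Myh11 at 1.22 (SE 0.57, adjusted p 0.15) and Acta2 at 0.88 (SE 0.38, adjusted p 0.12). Their sizes were as large as those of several members that passed, and the spread of the wild-type tumours, where replicate 3 was high, was wide. The lower member was Pdlim7 at -0.84 (SE 0.23, adjusted p 0.0241). The values nearest to 0 were those of 3 members, with Flna at 0.02 (SE 0.26), Tpm1 at 0.02 (SE 0.26) and Csrp1 at 0.00 (SE 0.34). Without the library with skeletal muscle markers these 3 were at 0.10, -0.07 and 0.05. Chrm3, the other muscarinic receptor gene of the list, had -0.06 and did not pass. The size of the Chrm2 difference is uncertain, because its wild-type male tumour levels of 0.36, 0 and 0.737 CPM were near the floor. Its call was lost without wild-type male tumour replicate 1 (edgeR adjusted p 0.0533).

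Some members were high in the library with skeletal muscle markers. Ldb3 stood at 14.9, 11.3 and 9.76 CPM in the wild-type male tumours and at 15.7, 23.4 and 61 CPM in the App NL-G-F male tumours, the last being that library. Tpm2 stood at 21.2, 21.2 and 48.7 against 43.2, 56.8 and 161 CPM, and Hspb6 at 2.88, 1.75 and 7.46 against 3.2, 4.56 and 20.5 CPM. All 3 genes are also expressed in skeletal muscle, and in each the third App NL-G-F library was the highest of the 6. Whether skeletal muscle in that sample raised them was not tested. Without that library 5 members were higher and 1 was lower, with a median log2 fold change of 0.71. Ldb3 was then at 0.70 (SE 0.26, edgeR adjusted p 0.0776) and Nexn at 0.38 (SE 0.19, adjusted p 0.182), while Hspb6 moved from 1.10 to -0.14 (SE 0.49) and Tpm2 from 1.49 to 0.70 (SE 0.49). Chrm2 at 3.07 (SE 0.63, adjusted p 0.00843), Dmd at 1.20 (SE 0.26, adjusted p 0.01), Pgm5, Itga8, Myocd and Pdlim7 remained past the threshold. The share of all tested genes called in either direction was then 13.8%. Without wild-type tumour replicate 1 or 2, 2 members were called, beside 4.54% and 6.59% of all tested genes. Without wild-type tumour replicate 3, 13 were called beside 4.43%. Without App NL-G-F replicates 1 and 2, 5 and 3 were called beside 9.70% and 2.65%.

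**Figure D4:**
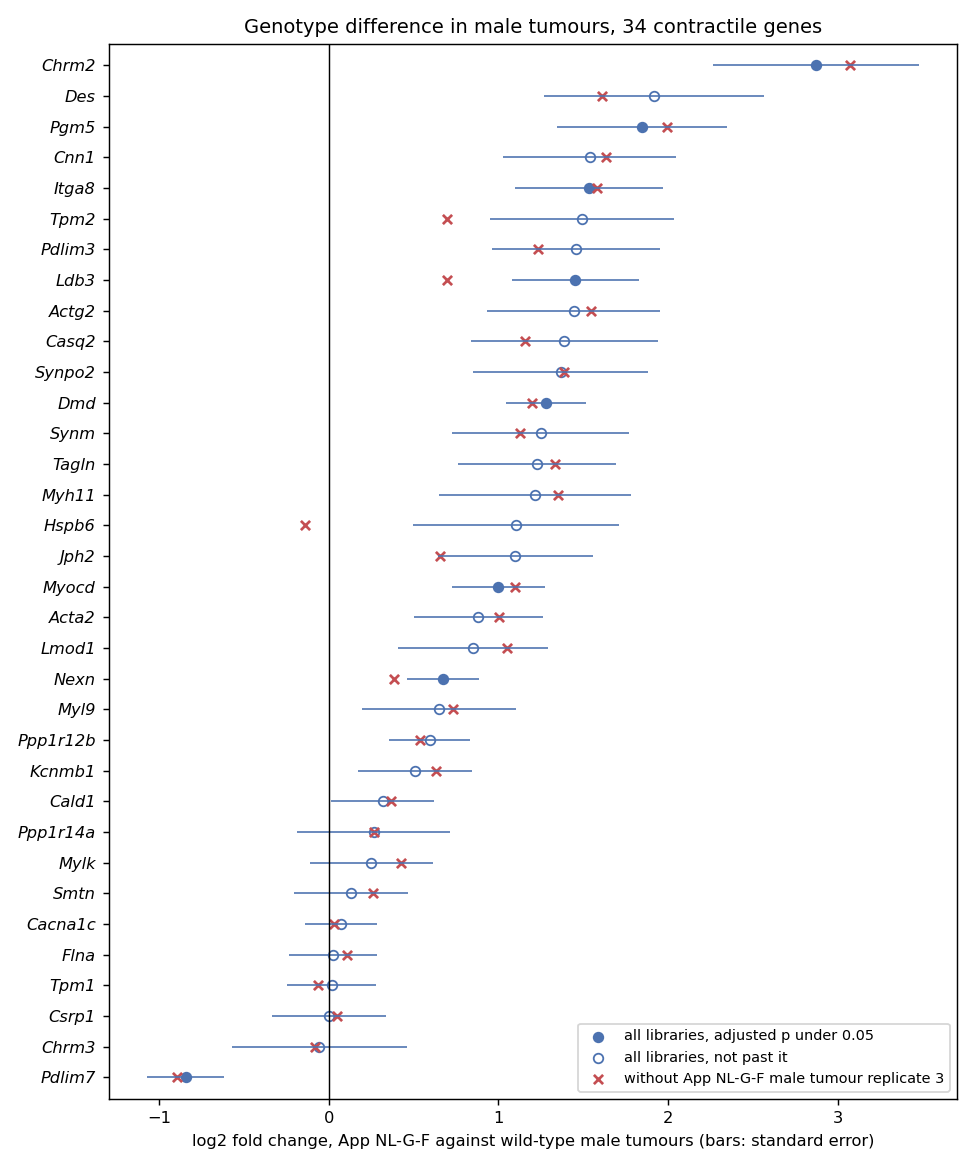
Log2 fold change of App NL-G-F against wild-type male tumours for each member with its standard error (filled, edgeR adjusted p under 0.05), and the value without the App NL-G-F library that holds skeletal muscle markers (crosses). Chrm2 is highest at 2.87 and stays high without that library, while Ldb3 moves from 1.45 to 0.70 and Hspb6 from 1.10 to -0.14.

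The lists of neighbouring cells moved in this comparison too. The sums of the glial markers (2.62 to 4.14 against 5.74 to 10.2 CPM), of the markers of interstitial cells of Cajal (237 to 287 against 398 to 629), of the pericyte markers (158 to 176 against 211 to 249) and of the fibroblast markers (2395 to 2856 against 3082 to 4431) were all higher in App NL-G-F male tumours without overlap. The mesothelial markers were lower without overlap, at 28.5 to 45.4 in wild-type and 13.9 to 21.5 CPM in App NL-G-F male tumours. Their part in the members' difference was not tested. Of the 54 other pathway genes, 11 were higher and 2 lower. Among all 15936 tested genes 9.30% were higher and 833 genes were lower. The highest of the 11 were Sspn, sarcospan of the dystrophin complex, at 1.94 (SE 0.42) and Ryr3, a calcium release channel, at 1.82 (SE 0.45). The lower ones were Cnn3 at -0.52 (SE 0.17) and Itpr1, the inositol trisphosphate receptor, at -0.33 (SE 0.11). Values of these pathway genes without the library with skeletal muscle markers were not examined.

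Whether the fall from normal colon to tumour itself differed between the male genotypes was tested as an interaction, which uses the same tumour libraries. The fall was smaller in App NL-G-F males for 31 of 34 members, and the median interaction was 1.06 on the log2 scale against 0.05 over all tested genes. By edgeR's quasi-likelihood test 2 members passed, where 1.51% of all tested genes did: Dmd at 1.53 (SE 0.32, adjusted p 0.0406) and Chrm2 at 3.11 (SE 0.74, adjusted p 0.0474). Pgm5 had 2.24 (SE 0.68, adjusted p 0.0765), and the most negative value was that of Pdlim7, -0.81 (SE 0.32, adjusted p 0.133). Chrm3, the other muscarinic receptor gene, had -0.10. The Chrm2 value rests in part on wild-type male tumour counts near the floor. Without the library with skeletal muscle markers both passed, Dmd at 1.44 (SE 0.34, adjusted p 0.0378) and Chrm2 at 3.31 (SE 0.76, adjusted p 0.0371), beside 4.28% of all tested genes, while Tpm2 moved from 1.61 to 0.81, Ldb3 from 1.52 to 0.77 and Hspb6 from 1.08 to -0.17. Both calls were near the threshold: leaving out 1 other library gave 0 to 3 called members, beside 0% to 13.0% of all tested genes. The 3 were called without wild-type male normal replicate 2 or App NL-G-F male normal replicate 2, beside 2.57% and 13.0%. GC content and length offsets gave 0 members and 0 of all tested genes, and with only the 4 groups of the interaction in the fit 0 members passed, beside 0.00633% of all tested genes.

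In normal colon of males no difference between the genotypes was detectable in the set. By edgeR's quasi-likelihood test 0 members passed, where 0.0126% of all tested genes passed. At an unadjusted edgeR p under 0.05 there were 0 members, beside 532 of all 15936 tested genes. With DESeq2 0 members passed, beside 0.0288% of the genes it tested. Log2 fold changes ran from -0.39 (SE 0.46) for Pgm5 to 0.14 (SE 0.20) for Cacna1c, with a median of -0.08. Myh11 had -0.35 (SE 0.56), and no member had its 3 App NL-G-F libraries all on one side of the wild-type ones, where 7.08% of all tested genes did.

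In normal colon of females the set was higher in App NL-G-F than in wild-type mice. The mean log2 CPM over the members was 6.04, 5.52 and 6.45 in wild-type and 7.10, 7.49 and 7.22 in App NL-G-F libraries. By edgeR's quasi-likelihood test 19 members were higher and 0 lower, where 8.97% of all tested genes were higher, and the median log2 fold change was 1.30 against 0.02 over all tested genes. Tpm2 was highest at 2.07 (SE 0.54, adjusted p 0.0179), followed by Jph2 at 2.03 (SE 0.43, adjusted p 0.00575) and Lmod1 at 2.02 (SE 0.40, adjusted p 0.00355). Flna stood at 966, 766 and 1407 CPM in wild-type and at 2536, 3260 and 2358 CPM in App NL-G-F libraries, without overlap, 1.38 on the log2 scale (SE 0.26, adjusted p 0.00244). Myocd stood at 11.6, 10.9 and 18.4 against 34.1, 39.8 and 32.3 CPM, 1.39 (SE 0.26, adjusted p 0.00178), and Mylk at 318, 204 and 432 against 786, 994 and 789 CPM, 1.43 (SE 0.37, adjusted p 0.0156). Both are apart between the genotypes. Actg2 stood at 277, 163 and 339 against 706, 1028 and 655 CPM, 1.62 (SE 0.50, adjusted p 0.0387), and Acta2 at 411, 384 and 729 against 1078, 1476 and 1072 CPM, 1.25 (SE 0.38, adjusted p 0.034). Both actin genes passed without overlap.

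Several defining genes were apart by level without passing. Myh11 stood at 846, 629 and 1502 against 2424, 3529 and 2792 CPM, 1.56 (SE 0.57, edgeR adjusted p 0.0757), and Des at 354, 170 and 480 against 850, 1184 and 850 CPM, 1.52 (SE 0.63, adjusted p 0.112). Cnn1 stood at 199, 114 and 277 against 384, 496 and 397 CPM, 1.11 (SE 0.48, adjusted p 0.125). For these 3 genes the libraries did not overlap. Their pooled SD within groups in log2 CPM was 0.72, 0.82 and 0.65. It was 0.65 for Actg2 and 0.67 for Tpm2, which passed. Chrm2 stood at 8.33, 4.18 and 9.76 against 13.7, 19.7 and 15.1 CPM, 1.11 (SE 0.43, adjusted p 0.0882), and Chrm3 at 1.94, 1.81 and 2.79 against 4.35, 4.95 and 5.59 CPM, 1.20 (SE 0.49, adjusted p 0.0999). Tagln overlapped, at 594, 393 and 974 against 952, 1298 and 1025 CPM. Dmd, at 142, 124 and 175 against 134, 136 and 126 CPM, overlapped as well and had the lowest value, -0.15 (SE 0.22, adjusted p 0.681). The count of called members was 7 without wild-type replicate 1, wild-type replicate 2 or App NL-G-F replicate a, where 7.43%, 6.48% and 6.27% of all tested genes were called in either direction. It was 15 to 18 without each of the other 3, where 11.7% to 16.8% were called; 2 of the App NL-G-F female columns carry the same name, and their libraries are called a and b.

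The same 3 wild-type female libraries also enter the sex comparison of wild-type normal colon and the female tumour comparison above, so these results are not independent. Female against male wild-type normal colon had 9 lower and 0 higher members by edgeR's quasi-likelihood test, where 10.2% of all tested genes were lower, with a median log2 fold change of -1.04 against -0.0040. The 9 were Jph2 at -1.75 (SE 0.43), Actg2 at -1.71 (SE 0.50), Pdlim7 at -1.67 (SE 0.24), Csrp1 at -1.58 (SE 0.34), Lmod1 at -1.58 (SE 0.40), Pdlim3 at -1.43 (SE 0.45), Flna at -1.27 (SE 0.26), Smtn, smoothelin, at -1.26 (SE 0.34) and Myocd at -0.99 (SE 0.25). The most positive value was that of Dmd, 0.42 (SE 0.22, adjusted p 0.211). The sexes did not overlap for 6 members, 17.6% of the list, and for 34.2% of all tested genes, and wild-type male normal replicate 2 lay near the females for most of them. The count was 19 without that library, beside 9.66% of all tested genes called in either direction. It was 5, 3 and 15 without female replicates 1, 2 and 3, beside 8.34%, 6.36% and 15.6%, and 4 and 6 without male replicates 1 and 3, beside 7.03% and 17.1%. In App NL-G-F normal colon 0 members passed between the sexes with edgeR's quasi-likelihood test, where 0.584% of all tested genes passed. With DESeq2 0 members passed, beside 3.63% of the genes it tested. At an unadjusted edgeR p under 0.05 there was 1 member, beside 2433 of all 15936 tested genes. Values ran from -0.20 (SE 0.23) for Pdlim7 to 0.87 (SE 0.47) for Casq2.

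Other cell markers were low in wild-type female normal colon as well. Their sums against wild-type male normal colon were 1521 to 1823 against 2858 to 3118 CPM for fibroblasts, 70.2 to 98.3 against 141 to 241 for endothelium 150 to 188 against 244 to 295 for pericytes and 3.62 to 7.44 against 10.5 to 25.5 for adipocytes, all without overlap. Interstitial cells of Cajal (930 to 1157 against 777 to 1120), enteric neurons (47.4 to 62.6 against 38.1 to 69.6) and enteric glia (10.03 to 20 against 9.66 to 19.7) overlapped. In App NL-G-F female normal colon the sums were 2756 to 3421 for fibroblasts, 165 to 180 for endothelium and 255 to 292 for pericytes, above the wild-type females in each. The epithelial markers were lower without overlap, at 9251 to 9450 against 9764 to 10528 in the wild-type females. Their part was not tested.

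The members' differences in these normal groups also went with the base composition of their transcripts. Over the 34 members Spearman's rho between GC content of the longest transcript and log2 fold change was -0.65 for females against males of the wild type and 0.65 for App NL-G-F against wild-type females, against -0.37 and 0.35 over all tested genes. The GC-rich Jph2 (61.8%) and Pdlim7 (57.9%) had -1.75 and -1.67 in the sex comparison and 2.03 and 1.44 in the genotype comparison. The GC-poor Dmd (41.5%) and Nexn (39.6%) had 0.42 and 0.01, and -0.15 and 0.31. Pdlim3, also GC-poor (43.0%), went against the order with -1.43 and 1.62. Members share libraries, and these are descriptions across genes. In the wild-type tumour comparisons the members' rho was -0.02 in males and -0.0038 in females, in App NL-G-F males -0.25, and in the genotype comparison of male tumours -0.28. Over all tested genes it was 0.12, 0.09, -0.35 and -0.41 in the same order. With offsets for GC content and length in the fit, chosen after seeing the data, 16 members were called in the female genotype comparison and 7 in the sex comparison of the wild type, beside 16.5% and 16.3% of all tested genes. With the same offsets Itga8 and Nexn no longer passed in the genotype comparison of male tumours (edgeR adjusted p 0.0799 and 0.442). The other called members still passed there, beside 6.27% of all tested genes.

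**Figure D5:**
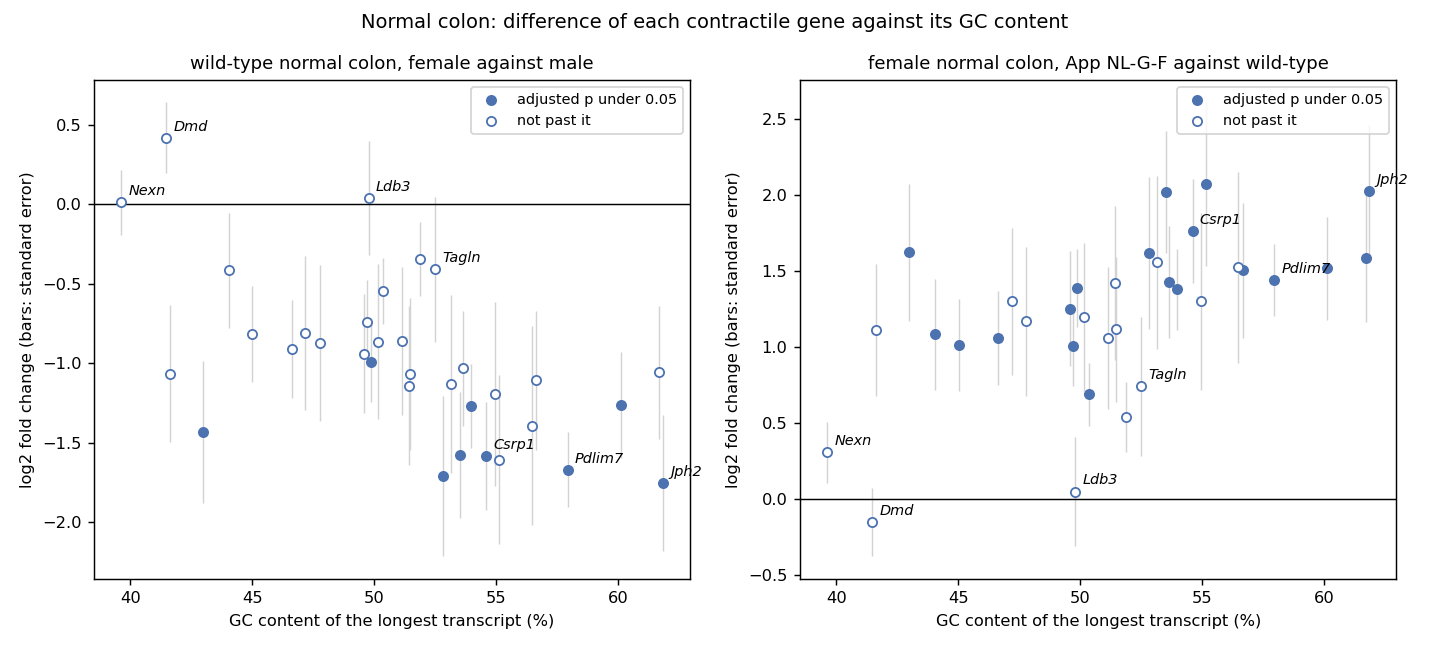
Log2 fold change of each member with its standard error against the GC content of its longest transcript (%), for females against males in wild-type normal colon (left) and App NL-G-F against wild-type in female normal colon (right); filled symbols have an edgeR adjusted p under 0.05. Dmd, at 41.5% GC, lies at 0.42 and -0.15, and Jph2, at 61.8%, lies at -1.75 and 2.03.

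The genotype difference of normal colon was tested between the sexes as an interaction. All 34 values were above 0, with a median of 1.45 on the log2 scale against 0.01 over all tested genes, and 4 members passed edgeR's quasi-likelihood test, where 2.54% of all tested genes did. They were Csrp1 at 1.98 (SE 0.48, adjusted p 0.0375), Flna at 1.55 (SE 0.37, adjusted p 0.0329), Pdlim7 at 1.47 (SE 0.33, adjusted p 0.0243) and Myocd at 1.40 (SE 0.35, adjusted p 0.0413). Tpm2 had the highest value, 2.18 (SE 0.74, adjusted p 0.133), and Dmd the lowest, 0.09 (SE 0.32). With 1 library left out 0 to 14 members passed: 0 without wild-type female replicate 1 or 2, wild-type male replicate 1 or App NL-G-F female replicate a, where 0.558% to 0.741% of all tested genes passed, and 14 without wild-type male replicate 2, where 3.66% did. With GC content and length offsets 1 member passed, beside 2.15% of all tested genes.

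Wild-type tumours of the sexes did not differ in any member by edgeR's quasi-likelihood test, where 0.860% of all tested genes passed. An unadjusted edgeR p under 0.05 was found for 11 members, beside 3350 of all 15936 tested genes. With DESeq2 1 member passed, beside 6.16% of the genes it tested. The median log2 fold change, females against males, was -0.67, and -0.23 without wild-type male tumour replicate 3. Des had the most negative value, -2.25 (SE 0.72, adjusted p 0.104), at 5.43, 4.56 and 10.4 CPM in females against 13.7, 10.5 and 70.8 CPM in males, and Dmd the most positive, 0.68 (SE 0.24, adjusted p 0.12), at 44.1, 34.2 and 33.8 against 23.3, 17.8 and 27.9 CPM. Both genes were apart between the sexes. As to the size of the fall from normal colon, 1 member differed between wild-type sexes, where 1.12% of all tested genes did: Pdlim7 at 1.39 (SE 0.33, adjusted p 0.0455), whose rise in tumours was larger in females, where its normal level was low.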

How the data were processed

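Total RNA of colon tissue and tumours was depleted of ribosomal RNA and reverse transcribed from random hexamers before Illumina sequencing, per the labels' protocols. Reads were processed with Trimmomatic, HISAT2 and featureCounts on mm10, per the submitters' processing notes; versions, strand setting and annotation are not given in the sources used here. The authors deposited raw counts per gene symbol, and their table of DESeq2 results was not used. Total counts per library ran from 3414123 to 26174008, and a count of 3 taken as the detection floor covers counting error only.

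The members and gene lists were chosen with earlier results of these data known. Counts were tested in R 4.3.3 with edgeR 4.0.16 (TMM scaling, filterByExpr by group, robust quasi-likelihood F test, 1 coefficient for each of 7 groups over 21 libraries, two-sided, Benjamini-Hochberg over 15936 genes, threshold 0.05). CPM uses TMM-scaled totals, and log2 CPM a prior count of 2. SE is the log2 fold change over the square root of F. Exon lengths, transcript GC content (matched for 95.3% of tested genes and all 34 members) and gene positions came from GENCODE M21 on GRCm38, the same assembly as mm10.

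Genes named are 12 with values in every library (Myh11, Acta2, Actg2, Des, Cnn1, Tagln, Mylk, Myocd, Chrm2, Chrm3, Flna, Dmd), the extreme members of each comparison, members by role, and the 2 most positive and 2 most negative called genes of the second list. Library values of Pdlim7, Ldb3, Tpm2 and Hspb6 were added after their values were seen. No samples were paired in the main test. A block for replicate number was fitted only as an alternative run, over all groups except App NL-G-F female normal colon. Samples of the same replicate number met a rule for possible pairs in wild-type male normal colon and tumours only. The rule was that all same-number correlations of deviations exceed 0.1 (0.169, 0.174 and 0.215). Whether these samples came from the same mice is not known here. Alternatives were DESeq2 1.42.0, other scalings and filters, fewer groups, a replicate block, late library numbers (152 and above) as covariate, GC content and length offsets (added after seeing the data), and leaving out each library. The code was tested on simulated data.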

Additional observations from a re-analysis of the deposited data

Results flagged for a closer look

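A difference between groups, by the interaction term of edgeR's quasi-likelihood test (adjusted p by Benjamini-Hochberg), singled out 7 results. Between male genotypes the change from normal colon to tumour differed for Dmd, dystrophin, by 1.53 (SE 0.32, adjusted p 0.0406) and for Chrm2, 1 of the 2 muscarinic receptor genes of the list, by 3.11 (SE 0.74, adjusted p 0.0474) on the log2 scale; in both the fall was smaller in App NL-G-F males. Between wild-type sexes that change differed for Pdlim7 by 1.39 (SE 0.33, adjusted p 0.0455), a larger rise in females. In normal colon the genotype difference was more positive in females than in males for Flna by 1.55 (SE 0.37, adjusted p 0.0329), Myocd by 1.40 (SE 0.35, adjusted p 0.0413), Csrp1 by 1.98 (SE 0.48, adjusted p 0.0375) and Pdlim7 by 1.47 (SE 0.33, adjusted p 0.0243). Each of these calls was lost when at least 1 single library was left out. The Chrm2 counts in wild-type male tumours were near the floor.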

How the results depend on the processing

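No called member changed direction under any alternative run. The tumour comparisons kept 29 to 33, 24 to 28 and 24 to 29 called members (wild-type males, App NL-G-F males, wild-type females) with 1 library left out. Beside them 22.4% to 33.1%, 8.6% to 18.5% and 41% to 44.9% of all tested genes were called in either direction. Genotype in male tumours (8 called) gave 16 with DESeq2, 4 when the fit held the compared groups alone, 13 with the replicate block, 5 with the block and GC and length offsets, and 2 to 13 with 1 library left out. The shares of all tested genes called were 19.1%, 9.59%, 11.6%, 4.11% and 2.65% to 13.8% in the same order. Genotype in female normal colon (19) gave 7 to 18 with 1 library left out, beside 6.27% to 16.8% of all tested genes. Sex in wild-type normal colon (9) gave 16 with DESeq2, 4 with only its own groups fitted, 14 with the replicate block and 3 to 19 with 1 library left out. Of all tested genes 20.3%, 10.9%, 14.5% and 6.36% to 17.1% were called in these runs. Sex in wild-type tumours (0) gave 1 with DESeq2 and 1 with only the compared groups, beside 6.16% and 8.1% of all tested genes, and its median ran from -0.96 to -0.23.

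The genotype interaction of the tumour effect (2) gave 1 without the low-count filter, 4 with DESeq2, and 0 with the compared groups alone, the replicate block, late library numbers as covariate, GC and length offsets, and block and offsets together; leaving out 1 library gave 0 to 3, and a median of 0.77 to 1.62. The shares of all tested genes were 0.454% without the filter and 9.75% with DESeq2. They were 0% to 0.0126% in the runs with 0 members, and 0% to 13% with 1 library left out. The sex interaction (1) gave 0 without the filter, with the replicate block and with the late-number covariate, and 0 to 1 with 1 library left out, the median running from 0.060 to 0.77. Beside these, 0.63%, 0.463%, 0.144% and 0.19% to 3.33% of all tested genes were called. The genotype by sex interaction in normal colon (4) gave 12 with DESeq2, 0 with only the compared groups, 1 with offsets and 0 to 14 with 1 library left out. All tested genes then had 6.03%, 1.62%, 2.15% and 0.558% to 3.77% called. The cause of these moves was not tested.

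The replicate block left the 32 calls in wild-type males, where samples of the same replicate number met the rule for possible pairs, at 32. Elsewhere libraries share only a number, and the App NL-G-F female columns could not be blocked. Scaling by library totals put the median of all genes at 0.15 in wild-type female tumours against normal, 0.10 in the female genotype comparison and 0.13 in the sex interaction. In the main run these medians were 0.01, 0.02 and 0.03. Lowly expressed members (Chrm2, Chrm3, Casq2) are limited by depth, above all in the library of 3414123 counts.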
